A study of Mus musculus with 2 samples.

Results

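The complement genes examined here were 8 symbols of the deposited count table: C3, Cfb and Cfp, the C1q chain genes C1qa, C1qb and C1qc, and the receptor genes C3ar1 and C5ar1. They were picked by name, with results of these data already known, from a table of 56791 genes, and all 8 were found. The counts came from RNA sequencing of RAW264.7, a wild-type mouse monocyte and macrophage line of leukaemic origin, in a study of how a preparation called FAPD10-exos acts on M2 polarization. There were 2 groups with 1 library each. Both cultures received 20 ng of mouse recombinant IL-4, the cytokine that drives alternative (M2) activation, for 24 h. The treated culture also received 10000000 particles of FAPD10-exos over that time and the other, called vehicle here, did not, as the protocol is read here. A continuous line lacks the tissue setting of a resident macrophage, and what FAPD10-exos contain was not given in the sources used here.

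Complement is a cascade of plasma proteins that tags particles for uptake, recruits phagocytes and can lyse membranes. The classical route starts with C1q, the lectin route with ficolins or mannose-binding lectin, and the alternative route with C3 itself, factor B and factor D, and all routes meet at cleavage of C3. The fragments C3a and C5a act on the receptors encoded by C3ar1 and C5ar1, and macrophages both secrete early components and carry these receptors.

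The library of the treated culture, called the exos library here, held 37196241 counts and the vehicle library 36152743. Values are counts per 1000000 counts of a library's effective size (CPM), so that 1 CPM was worth 35.6 reads with FAPD10-exos and 37.8 with vehicle. Of the 12 macrophage markers 11 were measured, that is, had a mean of at least 1 CPM. Of these 3 were at least 1.5-fold higher and 2 at least 1.5-fold lower with FAPD10-exos. The 12 summed to 1912 CPM in the exos and 2112 CPM in the vehicle library, and the remaining one, Mertk, had 0 and 2 counts. Of 9 fibroblast markers, 6 were at 0 in both libraries, among them Col1a1 and Dcn, and no count exceeded 4. Of 10 markers of other leukocytes, 6 were at 0 and no count exceeded 2. The 4 endothelial markers summed to 0.731 CPM in the exos and 0.370 in the vehicle library, mostly from Pecam1 at 24 and 6 counts. The 4 hepatocyte markers summed to 1.97 and 1.27 CPM, mostly from Trf at 68 and 44 counts, the only one measured, with a ratio of 1.64 (95% counting interval 1.11 to 2.46), and Alb was at 0 in both. The part of these differences in the results was not tested.

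With 1 library per group no test was possible and no difference has a replicate check. Ratios give the exos over the vehicle library. Each is followed in parentheses by its 95% interval (exact Clopper-Pearson), which covers counting error only. Most low counts were even numbers, as when both ends of a read pair are counted, and a second interval from halved counts is given where named. A gene counted as higher with a ratio of at least 1.5 and an interval above 1, and as lower by the same rule downwards. That held for 2097 (17.1%, higher) and 2429 (19.8%, lower) of the 12264 measured genes. Of the 8 complement genes 4 were measured. C3 and Cfp were higher, C5ar1 was lower and C3ar1 lay between. At a 2-fold threshold C3 was higher and C5ar1 lower, beside 4.19% and 8.64% of the measured genes. The genes were chosen with these ratios known, so nothing is read from their number.

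The promoters of the 4 measured members are shown because C3 and Cfp were higher and C5ar1 was lower beside C3ar1 in between. Each is the 250 bases before the transcription start, 5′ to 3′ on the gene's strand. They came from a supplied set of RefSeq promoters on GRCm38.p6, and that set held 6 of the 8 genes. All 4 lie on the minus strand, C3 at chr17:57228137-57228386, Cfp at chrX:20931556-20931805, C3ar1 at chr6:122856158-122856407 and C5ar1 at chr7:16259339-16259588. Capitals mark a match, on either strand, to one of 5 motifs.
C3: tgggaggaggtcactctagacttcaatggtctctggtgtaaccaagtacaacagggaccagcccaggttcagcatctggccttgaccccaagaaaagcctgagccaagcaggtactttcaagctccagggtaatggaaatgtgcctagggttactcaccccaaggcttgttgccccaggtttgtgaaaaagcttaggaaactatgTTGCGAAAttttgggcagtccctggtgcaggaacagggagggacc
Cfp: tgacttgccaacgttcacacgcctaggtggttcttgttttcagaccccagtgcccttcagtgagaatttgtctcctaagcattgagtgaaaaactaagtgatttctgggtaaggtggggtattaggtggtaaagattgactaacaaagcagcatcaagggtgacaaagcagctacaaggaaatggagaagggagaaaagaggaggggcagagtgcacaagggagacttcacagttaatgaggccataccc
C3ar1: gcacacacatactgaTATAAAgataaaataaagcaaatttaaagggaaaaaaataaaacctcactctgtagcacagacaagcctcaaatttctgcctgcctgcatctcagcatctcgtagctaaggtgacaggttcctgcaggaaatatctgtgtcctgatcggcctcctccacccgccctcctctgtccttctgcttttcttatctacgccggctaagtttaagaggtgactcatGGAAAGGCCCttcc
C5ar1: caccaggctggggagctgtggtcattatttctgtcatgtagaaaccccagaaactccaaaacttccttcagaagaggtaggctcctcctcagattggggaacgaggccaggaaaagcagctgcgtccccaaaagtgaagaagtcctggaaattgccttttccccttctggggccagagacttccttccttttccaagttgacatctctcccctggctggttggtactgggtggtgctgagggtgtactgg

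The TATA box was searched as TATAAA and the PU.1 type, bound by a macrophage lineage factor, as GAGGAA. For the C/EBP type the letters were TTNNGCAA, for the STAT6 type, named for the factor that carries the IL-4 signal, TTCNNNNGAA and for the NF-kappaB type GGGNNNTTCC, where N is any base. No match overlapped another. In the C3 promoter the only match was of the C/EBP type, from 45 to 38 bases before the start, and 9.57% of 32536 distinct RefSeq promoter windows of this length hold one. The C3ar1 promoter held a TATAAA from 235 to 230 bases before the start, found in 12.3% of windows. It also held an NF-kappaB type match from 14 to 5 bases before the start, found in 4.65%. The promoters of Cfp and C5ar1 held none of the 5 strings. STAT6-type strings, which 5.89% of windows hold, were in none of these 4 windows, nor were PU.1-type strings (23.4%). The windows of the other members held, C1qb and C1qc, each had 1 PU.1-type match, from 30 to 25 and from 193 to 188 bases before the start, and no other match. For C1qb alone, the bases just after the start were not found in a GENCODE M21 transcript of the gene. The distance of its match from the start is therefore uncertain. Such matches are descriptions of letters, not of bound sites.

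C3 encodes the protein on which all routes converge. It had 788 counts with FAPD10-exos and 206 with vehicle, or 22.1 CPM against 5.45 CPM. The exos library was the higher one, and the single-library counting intervals, 20.6 to 23.7 CPM and 4.73 to 6.25 CPM, did not overlap. The ratio was 4.06 (3.48 to 4.76; 3.26 to 5.10 with counts halved). By ratio, C3 stood at position 13 from the top of the 12264 measured genes, and 0.0978% of them had a higher ratio. In the table C3 lies on chromosome 17 from 57510970 to 57535136 on the minus strand, in 42 separate exon blocks that no other gene of the table overlaps. The mouse build of this and the other gene positions was not given in the sources used here. This position does not adjoin that of the C3 promoter on GRCm38.p6, chr17:57228137-57228386. Of 49083 symbols shared with the GENCODE M21 mouse annotation, 1356 had the same start. Gene positions and promoter positions are thus not on the same coordinates and cannot be set beside each other. In bulk RNA, a larger number of cells that express C3 and more C3 RNA per cell cannot be told apart.

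Cfp encodes properdin, the secreted protein that stabilises the alternative-route C3 convertase. It had 761 counts with FAPD10-exos and 482 with vehicle, or 21.4 CPM (19.9 to 23.0) against 12.8 CPM (11.6 to 13.9). The exos library was again the higher one, by a smaller factor, at a ratio of 1.68 (1.49 to 1.88; 1.42 to 1.98 with counts halved). Of the measured genes, 10.9% had a higher ratio than Cfp. The gene lies on the X chromosome from 20791693 to 20797794 on the minus strand, in 9 exon blocks free of other genes.

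Cfb encodes factor B, the protease of the alternative-route convertase. It had 32 counts with FAPD10-exos and 25 with vehicle, or 0.899 and 0.662 CPM, which is under the 1 CPM filter. The difference was not detectable at this depth, with a ratio of 1.36 (0.781 to 2.39). The gene lies on chromosome 17 from 35075350 to 35081494 on the minus strand. Its value is uncertain, because 79.5% of its exon length is shared with the predicted gene Gm20547, which had 32 and 24 counts, and the treatment of shared reads was not given in the sources used here. Cfd, the gene of factor D that cleaves factor B, had 0 counts in both libraries.

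C1qa, C1qb and C1qc encode the A, B and C chains that together form C1q, a product for which tissue macrophages are a known source. All 3 had 0 counts in both libraries. With 0 counts, up to 3 remain possible, or 0.0843 CPM in the exos and 0.0794 CPM in the vehicle library, so no ratio was formed. These limits take each count as independent and would be higher if both ends of read pairs were counted. The genes sit side by side on the minus strand of chromosome 4, C1qa from 136623228 to 136626114, C1qc from 136617115 to 136620376 and C1qb from 136607440 to 136613498. The gaps between neighbours are 2851 and 3616 bases, and no other gene of the table overlaps their exons. C1q genes were thus at or under the detection limit with and without FAPD10-exos.

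**Figure D1:**
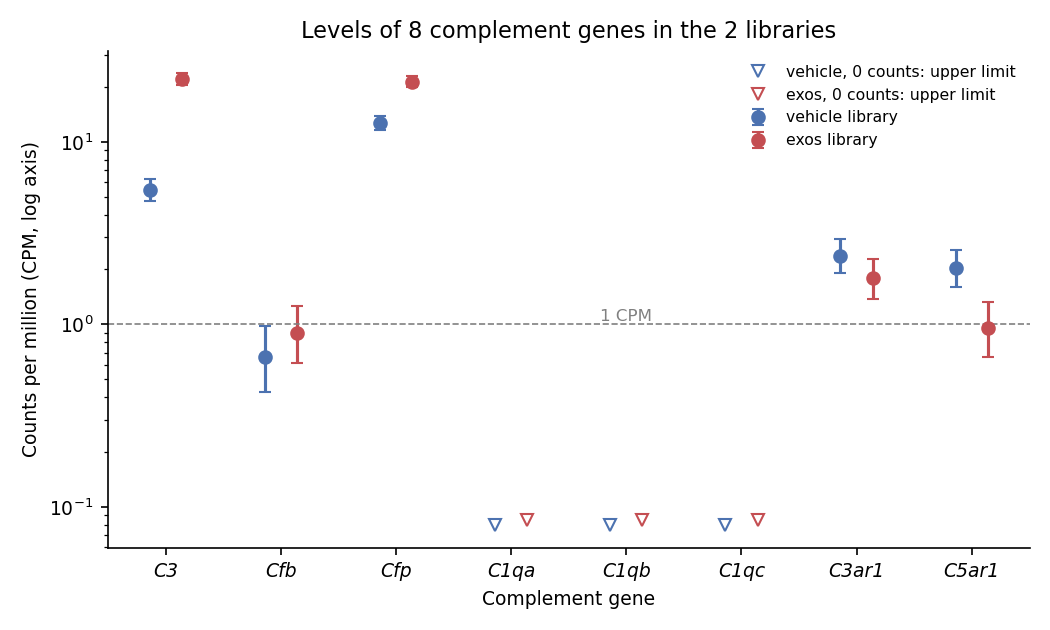
Levels of the 8 complement genes in CPM on a log axis, with 1 point per library (blue vehicle, red exos-treated) and bars for the exact 95% Poisson interval of the count; open triangles stand at the upper limit that a count of 0 allows. C3 and Cfp are higher in the exos library, C5ar1 is lower, the bars of Cfb and C3ar1 overlap between libraries, and the 3 C1q genes have no count.

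Of the receptor genes, C5ar1 went the other way. C5ar1, which encodes the receptor for the anaphylatoxin C5a on myeloid cells, had 34 counts with FAPD10-exos and 77 with vehicle, or 0.956 CPM (0.662 to 1.34) against 2.04 CPM (1.61 to 2.55). It was 2.13-fold lower in the exos library (1.41 to 3.29; 1.18 to 4.02 with counts halved), and 6.89% of measured genes had a lower ratio. The gene lies on chromosome 7 from 15980668 to 15993465 on the minus strand.

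C3ar1, the receptor gene for C3a, had 64 counts with FAPD10-exos and 90 with vehicle, or 1.80 CPM (1.39 to 2.30) against 2.38 CPM (1.91 to 2.93). These intervals overlap, and the ratio of 0.755 (0.539 to 1.05) was not told apart from 1 at this depth in the main analysis. With scaling by total counts the log2 ratio of C3ar1 was -0.53 (-1.02 to -0.05), an interval that excluded 0, but within 1.5-fold. The gene lies on chromosome 6 from 122824097 to 122833120 on the minus strand. C5ar2, the second C5a receptor gene, lies 2588 bases from C5ar1. It had 32 counts with FAPD10-exos and 56 with vehicle and was 1.65-fold lower (1.05 to 2.63), but with counts halved its interval, 0.307 to 1.16 as a ratio, included 1.

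Ratios between genes within a library do not depend on scaling. Among C3, Cfb, Cfp, C3ar1, C5ar1, C5ar2 and C2, 21 pairs were computed, and part of them are given here. In the exos library there were 1.04 C3 counts per Cfp count and in the vehicle library 0.427, a 2.42-fold difference (1.99 to 2.95, exact conditional interval). Counts of C3 per count of C5ar1 were 23.2 in the exos and 2.68 in the vehicle library, which differ 8.66-fold (5.52 to 13.7; 4.48 to 16.8 with counts halved). Counts of C3 per count of C3ar1, its own fragment's receptor, were 12.3 and 2.29, a 5.38-fold difference (3.71 to 7.80). Counts of C3 per count of Cfb were 24.6 and 8.24, a 2.99-fold difference (1.66 to 5.33; 1.20 to 6.68 with counts halved). Counts of Cfp per count of C5ar1 were 22.4 and 6.26, a 3.58-fold difference (2.32 to 5.61). C3ar1 per C5ar1 was 1.88 and 1.17, and that difference of 1.61-fold (0.934 to 2.80) was within counting error. Thus C3 shifted relative to Cfb, Cfp and both receptor genes, while the receptor genes were not told apart from each other. The pair with Cfb rests on 32 and 25 Cfb counts, which are uncertain because of the overlap with Gm20547.

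Levels of different genes were compared per kilobase of exon length. In the vehicle library Cfp was highest at 7.35 CPM per kb, followed by C3 at 1.06, C5ar1 at 0.793, C3ar1 at 0.553 and Cfb at 0.234. In that order Cfp exceeded C3 6.93-fold (5.88 to 8.20), whereas C3 over C5ar1, at 1.34, and C5ar1 over C3ar1, at 1.43, had intervals that included 1 with counts halved. C3ar1 exceeded Cfb 2.36-fold (1.24 to 4.84 with counts halved), but Cfb levels in either library are uncertain because of the overlap with Gm20547. In the exos library Cfp stood at 12.3 and C3 at 4.31 CPM per kb, so that Cfp exceeded C3 2.86-fold (2.59 to 3.16). C3 exceeded the next gene, C3ar1 at 0.418, 10.3-fold (7.98 to 13.5). C3ar1, C5ar1 at 0.372 and Cfb at 0.318 were not told apart from their neighbours by counting error. By level per kilobase, C3 stood above 19.1% of measured genes in the vehicle and 53.6% in the exos library, and Cfp above 64.7% and 74.3%.

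Ratios in these libraries went with gene length. The running median of the log2 ratio over exon length was 0.42 at the length of Cfp, 1736 bases, and -0.09 at that of C3, 5143 bases. Relative to it, C3 stood at 2.11 in log2 (1.89 to 2.34), at position 8 from the top of all measured genes. C5ar1, of 2570 bases, stood at -1.38 (-2.01 to -0.78) and was still at least 1.5-fold lower. Cfp stood at 0.33 (0.16 to 0.50), below the 1.5-fold threshold, so its call was lost. By that measure 12.2% of all measured genes counted as higher and 16.4% as lower. C3ar1, of 4305 bases, stood at -0.45 (-0.93 to 0.03).

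**Figure D2:**
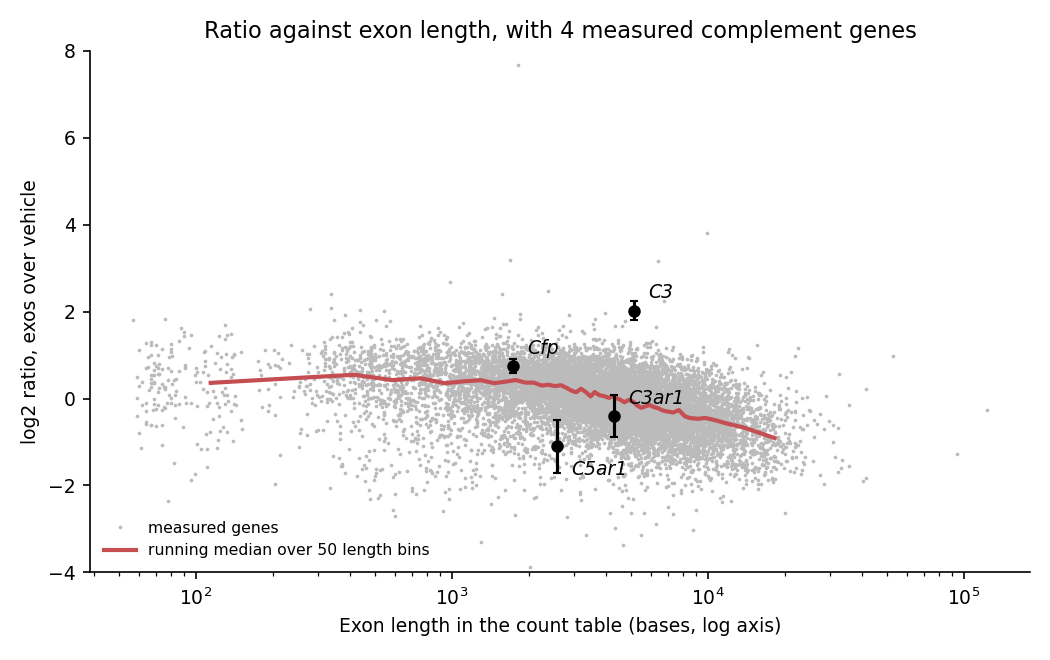
The log2 ratio of exos-treated over vehicle against exon length in bases (log axis), with 1 grey point per measured gene, the running median over 50 length bins in red and the 4 measured complement genes in black with 95% counting intervals. C3 lies far above the red line and C5ar1 below it, whereas Cfp, at a log2 ratio of 0.75, lies near the line at 0.42.

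The other complement genes numbered 47, of which 24 had 0 counts in both libraries, 2 had up to 2 counts and 16 were measured. Of the 16, 4 were higher (C1rb, Fcna, Cd59a and C1qbp) and 3 lower (Cd46, C5ar2 and Lrp1), with a median log2 ratio of 0.23 against 0.01 over all measured genes. The shares over all measured genes were 17.1% and 19.8%. After the length correction 2 were higher, C1rb and Cr1l, and 3 were lower, C5ar2, Lrp1 and Masp2, with a median of 0.22.

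Among genes that start the cascade, the C1r protease genes were detected although C1q was not. C1ra had 310 counts with FAPD10-exos and 239 with vehicle, a ratio of 1.38 (1.16 to 1.64). C1rb had 94 and 49, a ratio of 2.04 (1.43 to 2.94), but it is a close copy of C1ra, so how reads were split between them is uncertain. The partner proteases C1s1 and C1s2 had 0 and 2 counts each. Fcna, the gene of ficolin A, a lectin-route recognition protein, had 145 and 92 counts, a ratio of 1.67 (1.28 to 2.20). Masp2, the lectin-route protease, had 103 and 157 counts, a ratio of 0.697 (0.538 to 0.899) that fell short of 1.5-fold and is uncertain because 54.9% of its exon length overlaps Tardbp. The lectins Mbl1 and Mbl2 had 0 counts.

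The convertase and terminal genes were scarce. C2, the classical-route counterpart of Cfb that lies 85 bases from it, had 46 counts in each library, a ratio of 1.06 (0.690 to 1.63), and 46.9% of its exon length overlaps other genes. C4b had 16 and 18 counts, and C4a had 0 with FAPD10-exos and 10 with vehicle, at least 3.14-fold lower when 3 counts are put in place of the 0 and the 10 is taken as exact. Its exact interval, which also covers error in the 10, starts at 2.11-fold lower. C4a and C4b are near-identical, so their split is uncertain, and with counts halved the interval of C4a included 1. Hc, the mouse C5 gene, and the terminal genes C6, C7, C8a, C8b and C9 had 0 counts in both libraries, and C8g had 5 and 12. The C5a receptor genes were thus detected while the transcript of their ligand's precursor was not.

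Among regulators, which keep complement off host cells, Cr1l, the rodent membrane inhibitor Crry, had 906 counts with FAPD10-exos and 796 with vehicle, a ratio of 1.21 (1.10 to 1.33). It lay within 1.5-fold. Cd59a, an inhibitor of the membrane attack complex, had 58 and 36 counts, a ratio of 1.71 (1.11 to 2.67), and Cd46, a cofactor for cleavage of C3b, had 26 and 49, a ratio of 0.564 (0.336 to 0.925). With counts halved the intervals of Cd59a and Cd46 included 1. Clu, the gene of clusterin, had 70 and 56 counts, a ratio of 1.33 (0.921 to 1.92). Cd55, Cfi and Serping1 had 0 counts in both libraries.

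Of 10 other receptor genes 6 were measured, with C1qbp higher and C5ar2 and Lrp1 lower. Itgam and Itgb2, which form complement receptor CR3 for cleaved C3b, had ratios of 0.996 (0.971 to 1.02) from 12035 and 12837 counts and of 1.13 (1.09 to 1.18) from 5092 and 4782 counts. CR3 transcripts thus lay close to equal between the libraries, although 68.7% of the exon length of Itgam overlaps Gm49368. Itgax, which pairs with Itgb2 in CR4, had 38 counts with FAPD10-exos and 7 with vehicle, a ratio of 5.77 (2.54 to 15.3; 1.81 to 26.2 with counts halved), but its mean lay under 1 CPM. Vsig4, a C3b receptor of resident macrophages, had 0 counts in both libraries.

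Cd93, a surface protein once proposed as a C1q receptor, had 12 and 62 counts and was 4.86-fold lower (2.60 to 9.92), also with a mean under 1 CPM. Lrp1, a large endocytic receptor, was 3.18-fold lower (3.05 to 3.31) from 3004 and 10132 counts. Its exon length of 17717 bases is in the range where ratios were low in general, and after the length correction its log2 ratio was -0.78. C1qbp, a mainly mitochondrial protein that can bind C1q, had a ratio of 1.63 (1.57 to 1.69), and Calr, the chaperone calreticulin that also binds C1q, one of 1.46 (1.45 to 1.47). They stood at 0.47 and 0.34 after that correction, under the 1.5-fold threshold.

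**Figure D3:**
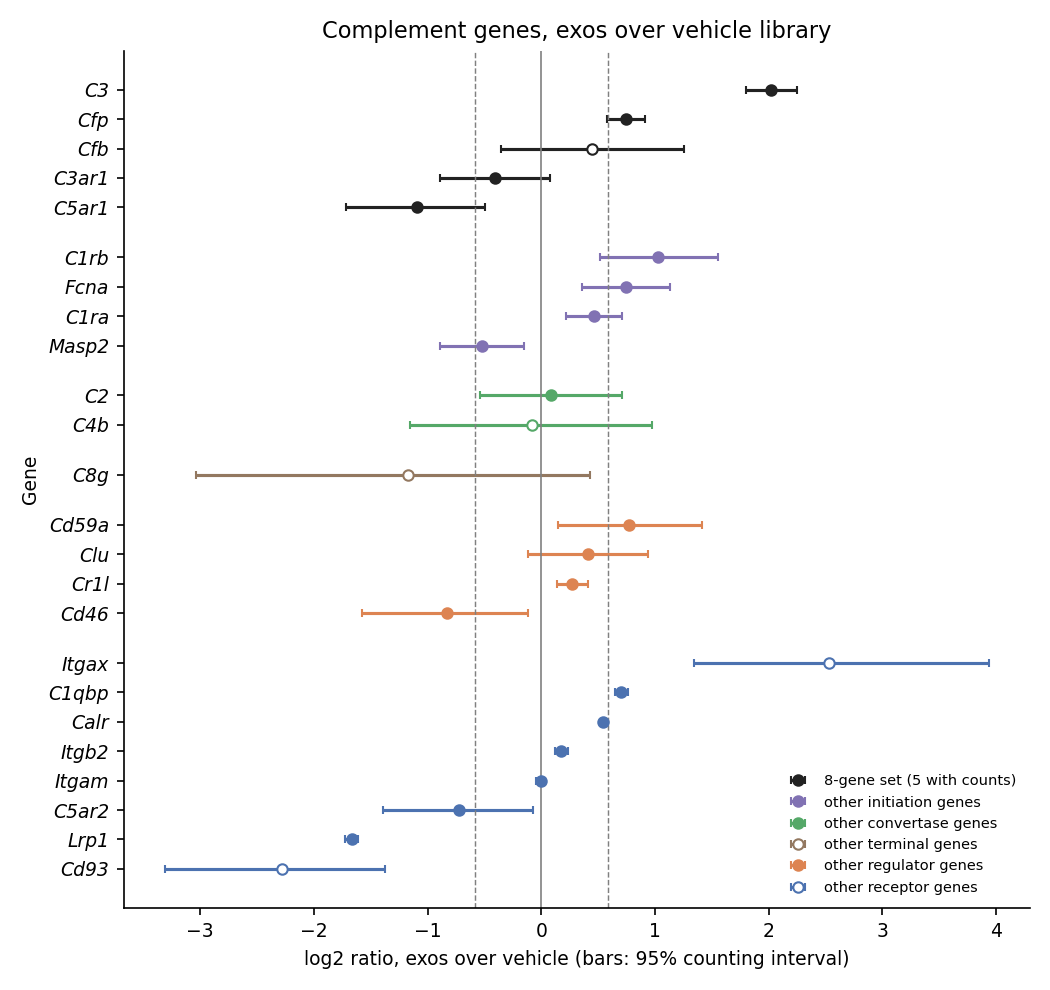
The log2 ratio of exos-treated over vehicle for the 5 members with counts (black) and other complement genes with at least 10 counts in total and a count in each library, coloured by role, with 95% counting intervals. Filled points have a mean of 1 CPM or more, open points lie below it, and dashed lines mark 1.5-fold in either direction. C3 and Cfp lie to the right and C5ar1 to the left of the dashed lines, and the Itgam point is at the centre line.

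With a single ratio per gene, likeness to C3 could be judged only by the difference in log2 ratio. The order held 9953 measured genes with at least 100 counts in total. Predicted and clone names were left out of it, so such genes may lie between those named. The 2 genes next above C3 were Snrpert, by 0.04, and Cst7, by 0.65. The 2 next below it were Pcbd2, by 0.02, and Rnf19b, by 0.09. Genes farther down the order can lie nearer to C3 than Cst7 does.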

How the data were processed

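RNA of 2 RAW264.7 cultures was sequenced, with 1 library per group. The authors deposited 1 table of raw counts per gene symbol, with exon lengths, in the featureCounts layout per the file headers. Per the submitters' processing notes, fastp 0.23.4, STAR 2.5.3a and featureCounts were used and the build was GRCh38, a human build, while the symbols are mouse. Strand setting and multi-mapping rules were not given in the sources used here, so antisense and overlapping genes cannot be told apart, and genes sharing at least 20% of exon length with others are named uncertain. Sample columns were identified from the labels' descriptions.

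Counts were scaled by TMM (edgeR 4.0.16, R 4.3.3), with factors of 0.957 for the exos and 1.05 for the vehicle library. Since 1 library per group leaves no residual degrees of freedom, edgeR's quasi-likelihood test was not possible and no p-values were made. Of genes with 1 to 50 counts, 76.3% (exos) and 75.1% (vehicle) had an even count. For the length correction, the median log2 ratio at a gene's exon length, read from 50 bins, was subtracted.

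The 8 members, the lists of 47 other complement genes and of cell type markers, the comparisons and the alternatives were chosen with earlier results of these data known. Named were all members and other complement genes with at least 10 counts. Also named were the 2 genes next above and the 2 next below C3 by log2 ratio, with predicted and clone names left out. An item given by this rule is not reported here. Genes named at 0 to 2 counts, the markers Mertk, Col1a1, Dcn, Pecam1, Trf and Alb, and the overlapping genes were chosen after their values were seen. The scripts were tested on simulated counts. Alternatives were other scalings (totals, DESeq2 1.42.0 size factors, upper quartile), halved counts, other filters, 1 CPM added to both values and a 2-fold threshold. A correction by the principal transcript length of GENCODE M21 was added after the data were seen. Other software was Python 3.11.15, numpy 2.4.6, scipy 1.17.1, pandas 2.3.3 and matplotlib 3.10.9.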

Additional observations from a re-analysis of the deposited data

How the results depend on the processing

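Every log2 ratio moved by -0.13 with scaling by totals, by -0.04 with DESeq2 size factors and by 0.07 with upper quartiles, and C3, Cfp and C5ar1 kept their calls under all 3 and with counts halved. Of the genes called among all measured genes, 46.3% were higher in the main analysis, 32.3% with scaling by totals and 53.8% with upper quartiles. After the exon length correction Cfp stood at 0.33 in log2, and after correction by principal transcript length Cfp stood at 0.37 and C3 at 2.46. Either correction, like a 2-fold threshold, left 1 member higher (C3) in place of 2. At a mean of at least 10 CPM 0 members were lower in place of 1, since C5ar1 does not pass that filter. With 1 CPM added to both values, the log2 ratio of C5ar1 was -0.64 against -1.09 in the main analysis. That of C3 was 1.84 against 2.02, and that of Cfp 0.70 against 0.75. Of the other complement genes, 4 were higher in the main analysis, against 2 after the exon length correction and 1 after correction by principal transcript, at 10 CPM or at 2-fold. Lower were 3, against 5 with scaling by totals or without a filter and 1 after correction by principal transcript, with counts halved, at 10 CPM or at 2-fold. Over all genes, 1013 were higher and 1204 lower after correction by principal transcript, 1162 and 1372 at 10 CPM, and 514 (4.19%) and 1059 (8.64%) at 2-fold. No paired analysis was possible because each group has 1 library. With 25 to 90 counts in a library, the values for Cfb, C3ar1 and C5ar1 are limited by depth.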
